A study of Mus musculus with 12 samples.

Results

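A pair of metallothioneins and 8 antioxidant enzymes were followed across 4 groups of hearts. The 10 genes were Mt1, Mt2, Hmox1, Nqo1, Sod1, Sod2, Sod3, Gpx1, Gpx3 and Prdx1, picked by symbol out of the 38293 genes of the count tables, and all 10 had enough counts to be tested in both comparisons. RNA was sequenced from hearts of C57BL/6J mice aged 8 to 9 weeks, with 3 libraries per group; the methods name male mice in the account of the models and both sexes in the general account, and the labels give no sex. WT sham and WT IR were wild-type mice after sham surgery or after ischaemia–reperfusion (IR), a temporary ligation of the left anterior descending artery, and the comparison asks what IR changed. Zeb2 WT IR were wild-type littermates after IR and Zeb2 cTg IR were Zeb2 cTg mice after the same injury. In Zeb2 cTg mice a Cre driven by the Myh6 promoter, active in cardiomyocytes, opens a Zeb2 transgene at the Rosa26 locus. This comparison asks what differed between these genotypes in injured hearts. Neither the labels nor the methods say whether the littermates carried Cre, so Cre and added Zeb2 cannot be told apart. The IR hearts were collected 14 days after injury. The sources name the sampled tissue differently, as the remote zone, as left ventricle and as the infarct with its border zone. The ventricular cardiomyocyte marker Myl2 lay between 1760 and 2789 CPM (counts per 1000000 counts of the library) in all 12 libraries.

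Zeb2 itself, which the paper reports as raised in Zeb2 cTg hearts by qPCR and by protein staining, was checked first. It lay at 54.7, 57.8 and 67.0 CPM in the Zeb2 WT IR libraries and at 55.5, 56.9 and 58.7 CPM in those carrying the Zeb2 cTg IR label. The groups overlapped, with a log2 fold change of −0.07 ± 0.12 (SE; adjusted p = 0.750) that turned to 0.15 with GC correction and to 0.02 without Zeb2 WT IR replicate 3, so the transgene was not visible as a higher Zeb2 level and every direction given for the second comparison rests on the labels. In WT IR hearts Zeb2 was 1.39-fold higher than in WT sham (adjusted p = 0.0219), a call lost with GC correction (0.29, adjusted p = 0.0680) and without WT sham replicate 1 or 2 or WT IR replicate 2 (adjusted p = 0.0850, 0.112 and 0.0951). Libraries held 20215781 to 36816818 counts, of which 60.6 to 73.5% lay in genes of the mitochondrial genome, and 1 CPM stood for 17.2 to 37.8 counts.

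Metallothioneins are small cysteine-rich proteins that bind zinc and copper, and their genes are switched on by the metal sensor MTF-1 through metal response elements, and also by glucocorticoids and oxidants. Superoxide dismutases turn superoxide into hydrogen peroxide in the cytosol (Sod1), the mitochondrial matrix (Sod2) and the extracellular space (Sod3), and the peroxide is then removed by glutathione peroxidases, peroxiredoxins and catalase. Hmox1, which breaks down heme, and Nqo1, which reduces quinones by transfer of an electron pair, are induced through the transcription factor NRF2, and Hmox1 also responds to heme. Reperfusion of ischaemic heart muscle is a classic source of reactive oxygen species.

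Mt2 and Mt1 lie next to each other on the plus strand of chromosome 8 with 5513 bases between them (GRCm38, Mt2 at chr8:94172664-94173568, Mt1 at chr8:94179082-94180327). Their upstream sequences are shown because both genes were called higher in one comparison and Mt2 alone in the other. Any link of these sequences to the levels was not tested. Each line holds the 250 bases before the RefSeq transcript start (GRCm38.p6, plus strand, 5′ to 3′), with matches to the core of the metal response element, TGCACNC or TGCGCNC on either strand, in capitals.
Mt2, chr8:94172368-94172617: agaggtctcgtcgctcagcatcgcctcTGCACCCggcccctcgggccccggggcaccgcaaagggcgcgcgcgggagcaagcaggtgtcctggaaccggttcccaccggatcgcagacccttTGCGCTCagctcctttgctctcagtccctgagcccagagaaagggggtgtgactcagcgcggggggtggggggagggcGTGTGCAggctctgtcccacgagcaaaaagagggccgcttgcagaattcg
Mt1, chr8:94178839-94179088: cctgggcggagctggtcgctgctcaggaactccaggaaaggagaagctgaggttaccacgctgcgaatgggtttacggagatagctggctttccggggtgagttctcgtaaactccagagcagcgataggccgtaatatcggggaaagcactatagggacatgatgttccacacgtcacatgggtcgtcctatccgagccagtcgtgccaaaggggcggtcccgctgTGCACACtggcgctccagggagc
The Mt2 window held 3 matches, which began 223, 128 and 50 bases before the start, and the Mt1 window held 1, which began 23 bases before it. With the 50 bases after the start counted too, Mt2 had 4 matches and Mt1 had 3, so the contrast depended on where the window ended. At least 1 match was found in 21.4% of all 32851 upstream windows and 3 or more in 1.26%. The 1 match of the Mt2 window to the core of the antioxidant response element, TGACNNNGC, was a stretch reading TGACTCAGC that began 79 bases before the start. That core was present in 10.2% of all windows and, among the 8 members with a RefSeq window, also in Sod1 and Prdx1. The E-box CACCTG, which ZEB proteins bind, was matched once in the Mt2 window, in no window of the other 7 members and in 17.2% of all windows. Hypoxia response elements, ACGTG or GCGTG, were matched in Mt1, Mt2, Sod1, Sod2 and Gpx1 and in 38.6% of all windows. The windows of Nqo1 and Gpx3 held none of these motifs, and Hmox1 and Sod3 were not matched to a window.

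The other members lie on chromosome 8 (Hmox1 at 75093621-75100589 and Nqo1 at 107388225-107403206), 16 (Sod1 at 90220754-90226329), 17 (Sod2 at 13006846-13040063), 5 (Sod3 at 52363791-52371418), 9 (Gpx1 at 108338903-108340343), 11 (Gpx3 at 54902453-54910377) and 4 (Prdx1 at 116685544-116700822). All values are sums over the exons of a gene. Sod1 overlaps Scaf4 on the opposite strand, and 32.3% of the 75-base stretches of the longest Mt2 transcript also occur in Gm45774, an overlapping gene on the opposite strand that the count tables do not list. Of the longest Prdx1 transcript 5.63% of such stretches recur in Gm21399 or Gm7204, so a part of the Prdx1 reads may have been lost or split in counting. The share was under 1% for Sod1 and Sod2, and no such stretch of the other 6 genes occurred in another annotated transcript.

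Levels were compared between genes as CPM per kb of summed exon length. In WT sham hearts Sod2 stood highest at 21 ± 0.37 CPM per kb (SD, n = 3), followed by Prdx1 at 19.1, Mt1 at 15.8, Gpx3 at 14.8, Gpx1 at 10.9 and Nqo1 at 10.4. Sod1 at 6.66, Mt2 at 3.08, Sod3 at 1.90 and Hmox1 at 1.03 CPM per kb were the lowest. Only the neighbours Mt1 and Gpx3, and Gpx1 and Nqo1, overlapped between libraries. In WT IR hearts Gpx3 stood first at 25.0 ± 6.63 CPM per kb, within the spread of Prdx1 at 19.98, and Sod2 came next at 15, within the spread of Mt1 and Gpx1. In both Zeb2 groups Prdx1 and Sod2 led, at 32.2 and 21.1 CPM per kb in Zeb2 WT IR and at 35.2 and 19.6 in the libraries with the Zeb2 cTg IR label. Hmox1 was the lowest member in all 4 groups, within the spread of Sod3 in the 3 groups that had IR. This order depends on the gene model, since the exons of Sod2 sum to 10008 bases while its longest transcript has 5861.

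**Figure D1:**
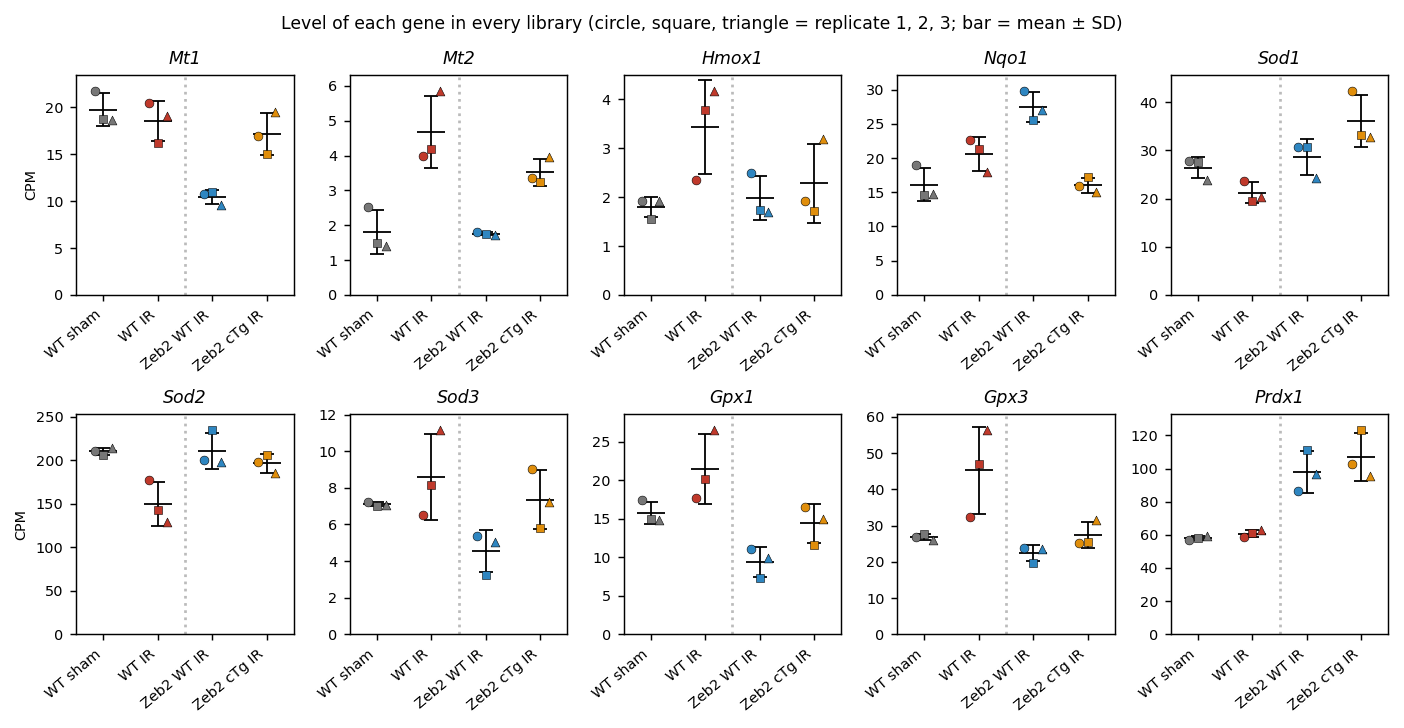
Level of each member in CPM (linear axis from 0) in every library, with circles, squares and triangles for replicates 1, 2 and 3 and a bar at the group mean ± SD (n = 3). The dotted line separates the 2 count tables, which were normalized separately. Mt2 lay at 1.40 to 2.53 CPM in WT sham and at 4.0 to 5.85 in WT IR, while Nqo1 lay at 25.5 to 29.8 in Zeb2 WT IR and at 15.1 to 17.2 in the libraries with the Zeb2 cTg IR label.

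After IR in wild-type mice, Mt2, Hmox1 and Gpx3 were higher and Sod1 and Sod2 were lower than in sham hearts. These 5 calls among 10 genes at an adjusted p under 0.05 (edgeR's quasi-likelihood test, adjusted over all 13756 genes tested) stand beside 20.8% of all genes, with 11.0% called higher and 9.74% called lower. The 3 libraries of WT IR did not overlap those of WT sham for 6 of the 10 genes, against 39.8% of all genes. The median log2 fold change was 0.31 over the 10 genes and 0.01 over all genes.

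Mt2 gave the largest change of the 10 after IR. It stood at 2.53, 1.5 and 1.40 CPM in the WT sham libraries and at 4.0, 4.18 and 5.85 CPM in the WT IR libraries. Every WT IR library lay above every sham library, and the means were 1.81 ± 0.63 and 4.68 ± 1.02 CPM (SD, n = 3 each). The log2 fold change was 1.34 ± 0.24 (SE, adjusted p = 0.00796), a 2.53-fold rise on 24 to 158 counts per library. Without WT sham replicate 2 the call was lost (1.18, adjusted p = 0.0585), and it held in the other 17 alternatives tried.

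Mt1, its neighbour, lay at 21.8, 18.8 and 18.7 CPM in WT sham and at 20.4, 16.2 and 19.0 CPM in WT IR. The groups overlapped and the log2 fold change was −0.09 ± 0.10 (adjusted p = 0.569). The sign of this difference turned when libraries were scaled to the cardiomyocyte markers (0.20, adjusted p = 0.279) and without WT IR replicate 2 (0.00079, adjusted p = 0.997).

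Hmox1 stood at 1.93, 1.56 and 1.92 CPM in WT sham and at 2.34, 3.78 and 4.18 CPM in WT IR. The groups did not overlap, and WT IR replicate 1 lay closest to the sham hearts. Hmox1 rose 1.92-fold (log2 fold change 0.94 ± 0.23, adjusted p = 0.0215), a call lost without WT sham replicate 1, 2 or 3 and without WT IR replicate 2 (adjusted p = 0.0589, 0.114, 0.0601 and 0.0885). Nqo1, also an NRF2 target, lay at 19.0, 14.6 and 14.8 CPM in WT sham and at 22.7, 21.3 and 17.9 CPM in WT IR. WT sham replicate 1 lay above WT IR replicate 3, and the log2 fold change of 0.36 ± 0.12 did not pass the test (adjusted p = 0.0700). Nqo1 passed it without WT sham replicate 1 (0.49, adjusted p = 0.0437), without WT IR replicate 3 (0.44, adjusted p = 0.0327) and with scaling to the cardiomyocyte markers (0.64, adjusted p = 0.0129), but not without any one of the other 4 libraries (adjusted p = 0.0849 to 0.282).

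The intracellular superoxide dismutases were lower after IR. Sod2, the mitochondrial enzyme, stood at 211, 206 and 214 CPM in WT sham and at 177, 143 and 129 CPM in WT IR. All WT IR libraries lay below all sham libraries, and WT IR replicate 1 lay closest to them. Sod2 was 1.40-fold lower (log2 fold change −0.49 ± 0.12, adjusted p = 0.0192). Sod1, the cytosolic enzyme, stood at 27.8, 27.7 and 23.9 CPM in WT sham and at 23.6, 19.5 and 20.4 CPM in WT IR. The gap between the lowest sham and the highest IR library was narrow, and Sod1 was 1.25-fold lower (−0.32 ± 0.10, adjusted p = 0.0430).

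Both calls depended on the scaling. With libraries scaled to the summed cardiomyocyte markers, which moved the median of all genes to 0.30 on the log2 scale, Sod2 stood at −0.22 (adjusted p = 0.111) and Sod1 at −0.03 (adjusted p = 0.835). The Sod2 call was also lost without WT sham replicate 1, 2 or 3 or WT IR replicate 2 (adjusted p = 0.0629, 0.0840, 0.0618 and 0.0891), and the Sod1 call without WT sham replicate 1 or 2 or WT IR replicate 2 or 3 (adjusted p = 0.143, 0.163, 0.165 and 0.0862), and it did not hold with DESeq2 (adjusted p = 0.0558) or when both tables were fitted jointly (adjusted p = 0.138). Sod3, the secreted enzyme, lay at 7.23, 7.02 and 7.04 CPM in WT sham and at 6.50, 8.15 and 11.2 CPM in WT IR. WT IR replicate 1 lay below all sham libraries and the other two above them. The log2 fold change of 0.27 ± 0.17 did not pass the test (adjusted p = 0.295), and it was 0.43 without WT IR replicate 1 (adjusted p = 0.0263) and 0.047 without WT IR replicate 3 (adjusted p = 0.840).

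Among the peroxidases Gpx3, the secreted plasma form of glutathione peroxidase, stood at 26.9, 27.7 and 26.1 CPM in WT sham and at 32.5, 47.1 and 56.3 CPM in WT IR. The sham libraries lay close together and every WT IR library lay above them, over a much wider range. Gpx3 was 1.68-fold higher (log2 fold change 0.75 ± 0.17, adjusted p = 0.0152), a call lost without WT sham replicate 1, 2 or 3 or WT IR replicate 2 (adjusted p = 0.0548, 0.0748, 0.0611 and 0.0634). Gpx1, the cytosolic form, lay at 17.4, 15 and 14.8 CPM in WT sham and at 17.7, 20.1 and 26.5 CPM in WT IR. The groups did not overlap, but the log2 fold change of 0.44 ± 0.14 missed the threshold (adjusted p = 0.0563), which it passed without WT IR replicate 1 (0.55, adjusted p = 0.00314), with DESeq2 (adjusted p = 0.0413), with GC correction (0.51, adjusted p = 0.0263) and with scaling to the cardiomyocyte markers (0.76, adjusted p = 0.0281), but not without any one of the other 5 libraries (adjusted p = 0.0817 to 0.200). Prdx1 lay between 56.9 and 59.0 CPM in WT sham and between 58.5 and 63.0 CPM in WT IR, with a log2 fold change of 0.07 ± 0.07 (adjusted p = 0.535).

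Cell type markers also differed between WT sham and WT IR. Of 12 macrophage markers 8 were called higher in WT IR, and their summed level was 168 to 187 CPM in WT sham and 242 to 454 CPM in WT IR. Of 8 fibroblast markers 7 were called higher, with sums of 495 to 894 and 1814 to 4535 CPM. Of 11 cardiomyocyte markers 3 were called lower and none higher, with sums of 62784 to 69277 and 48145 to 62394 CPM. None of 6 endothelial markers was called, with sums of 357 to 378 and 305 to 374 CPM. Of 5 red blood cell markers 2 were called lower, with overlapping sums of 84.4 to 140 and 89.6 to 108 CPM. Neutrophil markers were near 0 in every library, with sums of at most 2.27 CPM. WT IR replicate 3 held the highest macrophage and fibroblast sums and the lowest cardiomyocyte sum of the WT IR group. It also held the highest Mt2, Hmox1, Sod3, Gpx1, Gpx3 and Prdx1 levels and the lowest Sod2 level of that group. The remaining members differed in this. Nqo1 was lowest in WT IR replicate 3 (17.9 CPM), Mt1 lay between the other replicates there, and Sod1 was lowest in WT IR replicate 2 (19.5 CPM). The part of cell composition in these differences was not tested, and in whole tissue fewer cells of a type and less RNA per cell cannot be told apart.

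**Figure D2:**
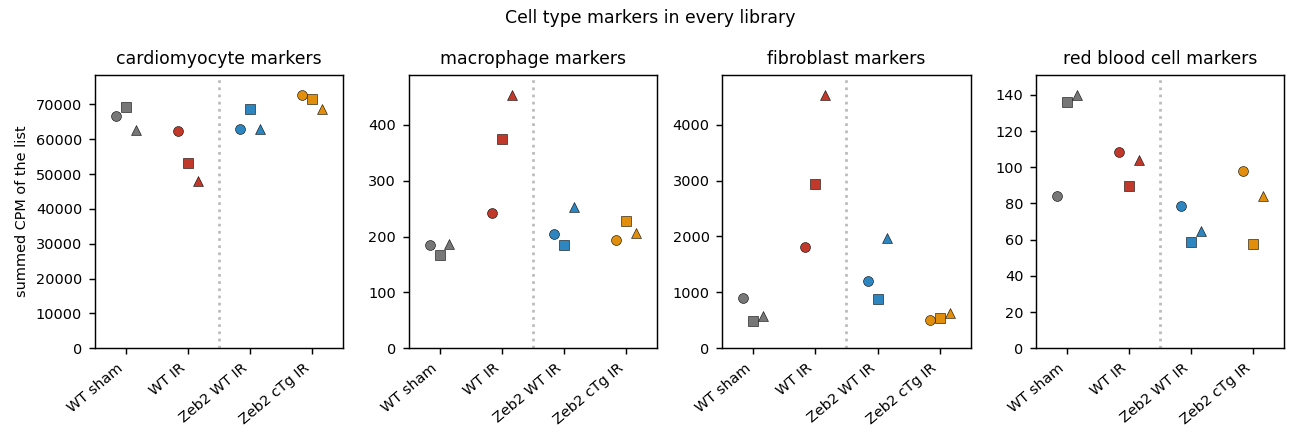
Summed CPM (linear axis from 0) of the cardiomyocyte, macrophage, fibroblast and red blood cell marker lists in every library, with circles, squares and triangles for replicates 1, 2 and 3. Macrophage sums ran from 168 to 187 CPM in WT sham and from 242 to 454 in WT IR, and the fibroblast list summed to 874 to 1970 CPM in Zeb2 WT IR but 509 to 624 in the libraries with the Zeb2 cTg IR label.

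Between the IR groups of the second table, Mt1 and Mt2 were higher and Nqo1 was lower in the libraries with the Zeb2 cTg IR label. These 3 of 10 genes (adjusted over all 13018 genes tested) stand beside 3.64% of all genes, with 2.14% called higher and 1.51% called lower. The groups did not overlap for 7 of the 10 genes, against 26.2% of all genes. The median log2 fold change was 0.32 over the 10 genes and 0.01 over all genes. These calls do not show which Zeb2 group had changed, and differences between the tables were not tested. Mt1 was 9.60 to 11 CPM in Zeb2 WT IR, but 16.2 to 20.4 in WT IR and 18.7 to 21.8 in sham. Nqo1 was 25.5 to 29.8, 17.9 to 22.7 and 14.6 to 19.0 CPM in that order. With the Zeb2 cTg IR label both genes overlapped WT sham. Mt2 overlapped WT sham in Zeb2 WT IR instead, and with the label it lay between WT sham and WT IR.

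Mt1 stood at 10.7, 11 and 9.60 CPM in Zeb2 WT IR and at 16.9, 15 and 19.5 CPM in the libraries with the Zeb2 cTg IR label. The groups lay clearly apart, with means of 10.4 ± 0.75 and 17.2 ± 2.26 CPM (SD, n = 3 each). Mt1 was 1.65-fold higher (log2 fold change 0.72 ± 0.14, adjusted p = 0.0283). Mt2 stood at 1.80, 1.74 and 1.73 CPM in Zeb2 WT IR and at 3.35, 3.24 and 3.96 CPM in the libraries with the Zeb2 cTg IR label. The Zeb2 WT IR libraries were nearly equal and all 3 others lay well above them, on 43 to 141 counts per library. Mt2 was 2.01-fold higher (1.00 ± 0.19, adjusted p = 0.0243).

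Both calls needed all libraries but one. Leaving out any library other than Zeb2 cTg IR replicate 2 left a log2 fold change of 0.62 to 0.76 for Mt1 (adjusted p = 0.0604, 0.0621 and 0.147 without Zeb2 WT IR replicate 1, 2 and 3, and 0.0920 and 0.118 without Zeb2 cTg IR replicate 1 and 3). In the same fits Mt2 stood at 0.91 to 1.03 (adjusted p = 0.0588, 0.0677, 0.122, 0.0769 and 0.116). With scaling to the cardiomyocyte markers, which moved the median of all genes by −0.13, the Mt1 call was lost (0.59, adjusted p = 0.0560).

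Nqo1 stood at 29.8, 25.5 and 27.1 CPM in Zeb2 WT IR and at 15.9, 17.2 and 15.1 CPM in the libraries with the Zeb2 cTg IR label. All 3 of the latter lay below all Zeb2 WT IR libraries, on 379 to 813 counts per library. Nqo1 was 1.71-fold lower (log2 fold change −0.78 ± 0.12, adjusted p = 0.0135). Without Zeb2 WT IR replicate 3 or Zeb2 cTg IR replicate 1 or 3 its adjusted p was 0.0672, 0.0594 and 0.0736 at −0.79, −0.77 and −0.73. Hmox1, also an NRF2 target, lay at 2.49, 1.74 and 1.70 CPM in Zeb2 WT IR and at 1.93, 1.72 and 3.20 CPM in the libraries with the Zeb2 cTg IR label. The groups overlapped (0.22 ± 0.29, adjusted p = 0.662), and without Zeb2 cTg IR replicate 3 the sign turned (−0.12, adjusted p = 0.883).

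No superoxide dismutase passed the test in this comparison. Sod1 stood at 30.8, 30.8 and 24.3 CPM in Zeb2 WT IR and at 42.4, 33.2 and 32.7 CPM in the libraries with the Zeb2 cTg IR label, and Sod3 at 5.35, 3.24 and 5.03 against 9.01, 5.80 and 7.24 CPM. Neither gene's groups overlapped, with log2 fold changes of 0.33 ± 0.15 (adjusted p = 0.212) for Sod1 and 0.69 ± 0.23 (adjusted p = 0.118) for Sod3. Sod3 passed the test without Zeb2 cTg IR replicate 2 (0.82, adjusted p = 0.0314), but not without any other library (adjusted p = 0.108 to 0.354). Sod2 stood at 200, 235 and 198 CPM and at 198, 206 and 185 CPM, overlapping, with a log2 fold change of −0.10 ± 0.12 (adjusted p = 0.626) that changed sign after correction for GC content (0.10, adjusted p = 0.524).

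The glutathione peroxidases also stood higher without passing the test. Gpx1 lay at 11, 7.24 and 9.90 CPM in Zeb2 WT IR and at 16.5, 11.6 and 15 CPM in the libraries with the Zeb2 cTg IR label, which did not overlap. Its log2 fold change was 0.61 ± 0.19 (adjusted p = 0.0980), and it passed without Zeb2 cTg IR replicate 2 (0.74, adjusted p = 0.0215) but not without any other library (adjusted p = 0.0864 to 0.303). The GC correction brought it to 0.25 (adjusted p = 0.181). Gpx3 lay at 23.7, 19.7 and 23.6 CPM and at 25.3, 25.3 and 31.6 CPM, also not overlapping (0.30 ± 0.14, adjusted p = 0.232), and stood at −0.01 after the GC correction. Prdx1 lay at 86.4 to 111 CPM in Zeb2 WT IR and at 95.3 to 123 CPM in the other group, overlapping (0.13 ± 0.14, adjusted p = 0.612). The GC correction raised Prdx1 to 0.32 (adjusted p = 0.0435).

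Fibroblast markers were lower and smooth muscle sums were higher in this comparison, while the cardiomyocyte markers split. Of 8 fibroblast markers 3 were called lower in the libraries with the Zeb2 cTg IR label, with sums of 874 to 1970 CPM in Zeb2 WT IR and 509 to 624 CPM in the other group. Macrophage sums overlapped at 185 to 252 and 195 to 227 CPM, and 1 of 12 macrophage markers, Cd163, was called higher. Cardiomyocyte sums were 62889 to 68788 and 68793 to 72768 CPM, with Tnnt2 alone of 11 markers called higher. Of these markers 7 stood higher and 4 lower, with 2 higher and 2 lower without overlap. Ttn, the largest part of the sums, had group means of 42227 and 46512 CPM and overlapped. Smooth muscle sums were 31.3 to 41.2 and 54.8 to 89.6 CPM, with Acta2 alone of 3 tested markers called higher. Red blood cell sums overlapped at 58.5 to 78.7 and 57.7 to 98.2 CPM, and endothelial sums at 278 to 325 and 236 to 283 CPM. The part of cell composition in the Mt1, Mt2 and Nqo1 differences was not tested.

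**Figure D3:**
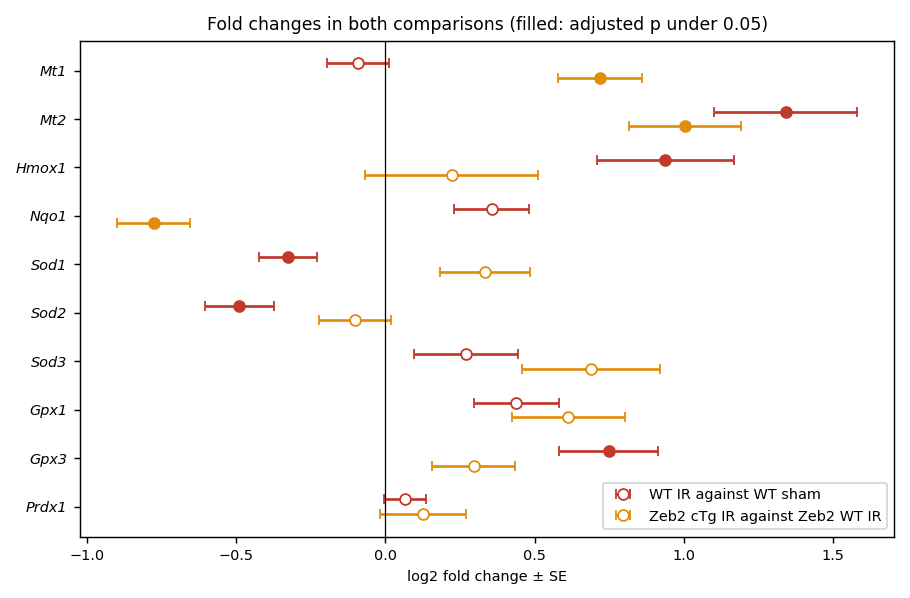
Log2 fold change ± SE of each member in WT IR against WT sham and in Zeb2 cTg IR against Zeb2 WT IR (3 libraries per group), with filled points where the adjusted p was under 0.05. Mt2 was called higher in both comparisons (1.34 and 1.00), Mt1 in the second alone (−0.09 and 0.72), and Nqo1 was called lower in the second (0.36 and −0.78).

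Ratios of counts within a library do not depend on library size. They were formed after the values were seen, for 5 pairs of members in both comparisons. The ratio of Mt2 to Mt1 counts was 0.117, 0.0801 and 0.0748 in WT sham and 0.196, 0.257 and 0.308 in WT IR. All WT IR libraries lay above all sham libraries, with a mean log2 difference of 1.49 that ranged from 1.34 to 1.69 with 1 library left out. In the second table the ratio was 0.168, 0.158 and 0.181 in Zeb2 WT IR and 0.198, 0.216 and 0.203 in the libraries with the Zeb2 cTg IR label, a log2 difference of 0.28. There the groups again did not overlap, but Mt1 and Mt2 differed nearly in step.

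The ratio of Nqo1 to Mt1 counts separated the groups of the second table furthest. It was 2.78, 2.32 and 2.82 in Zeb2 WT IR and 0.938, 1.14 and 0.770 in the libraries with the Zeb2 cTg IR label, a mean log2 difference of −1.49. In the first table it was 0.871, 0.779 and 0.791 in WT sham and 1.11, 1.31 and 0.941 in WT IR, a difference of 0.45. Every Zeb2 WT IR library thus lay above every library of the first table, a difference that was not tested. The ratio of Gpx1 to Sod2 was higher in the injured wild-type hearts by 0.93 and in the libraries with the Zeb2 cTg IR label by 0.72, again without overlap. In the second table the gap was narrow, from at most 0.0551 in Zeb2 WT IR to at least 0.0564 in the other group. In the first it ran from 0.0828 in WT sham to 0.0996 in WT IR. These ratios were not corrected for GC content, which was 57.2% for Gpx1 and 42.2% for Sod2. With GC correction the fold changes of Gpx1 and Sod2 were 0.51 and −0.65 on the log2 scale after IR. In the second comparison they were 0.25 and 0.10, much closer together than without it. The 10 exact two-sided permutation tests gave p = 0.1, the smallest that 3 against 3 libraries allow, for 9 of them, with adjusted p = 0.111 over the 10. The exception was Nqo1 to Hmox1 after IR in wild-type mice, where the exact permutation test gave p = 0.3.

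**Figure D4:**
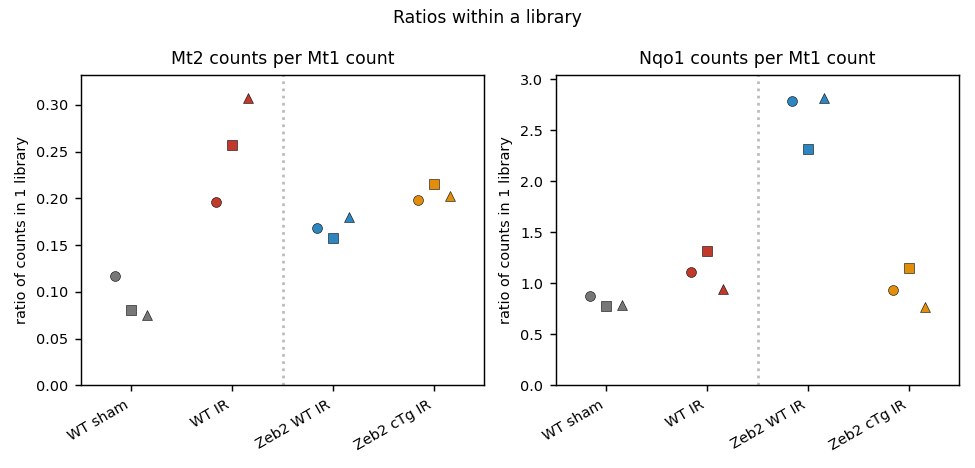
Ratio of Mt2 to Mt1 counts and of Nqo1 to Mt1 counts in each library (linear axes from 0), with circles, squares and triangles for replicates 1, 2 and 3 and a dotted line between the count tables. Mt2 to Mt1 lay at 0.0748 to 0.117 in WT sham and at 0.196 to 0.308 in WT IR, and Nqo1 to Mt1 lay at 2.32 to 2.82 in Zeb2 WT IR and at 0.770 to 1.14 in the libraries with the Zeb2 cTg IR label.

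Around these members, 69 other genes of metal handling, heme and iron, NRF2 control, glutathione, thioredoxin, NADPH supply and oxidant production were listed, and 66 were tested in each comparison. Mt3, Mt4 and Slc7a11 were too low to test, and Mt4 had no count in any library. After IR in wild-type mice 10 of the 66 rose and 8 fell, which is 27.3% beside 20.8% of all genes, with a median log2 fold change of 0.01 beside 0.01 for all genes. Without WT IR replicate 1 there were 33 calls, and without any one of the other 5 libraries 3 to 11, the fewest without WT sham replicate 2. Nox4, Txnip and G6pdx were called in all 18 alternatives, and the other 9 genes named by rank below each lost the call without WT sham replicate 2 (adjusted p = 0.0555 to 0.124) and were called in 12 to 17 of the 18.

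Of the 9 oxidant-producing enzymes 3 rose and 1 fell (44.4% called, beside 20.8% of all genes). Nox4, a constitutively active NADPH oxidase, stood at 1.06, 1.07 and 0.931 CPM in WT sham and at 5.81, 9.58 and 21.1 CPM in WT IR. The groups lay far apart, with WT IR replicate 3 the highest, and the log2 fold change was 3.54 ± 0.49 (adjusted p = 0.00391). The fibroblast marker sums of the same WT IR libraries were 1814, 2935 and 4535 CPM. The part of fibroblasts in the Nox4 difference was not tested. Cybb and Cyba, which code for the membrane subunits of the phagocyte NADPH oxidase, rose by 0.88 ± 0.23 and 0.56 ± 0.12 (adjusted p = 0.0271 and 0.0143). Cybb kept its call in 1 of the 6 fits with a library left out, without WT IR replicate 1, and lost it with limma-voom (adjusted p = 0.0563). The median log2 fold change of the 12 macrophage markers was 0.92, and their part in the Cybb and Cyba differences was not tested. Maob, a mitochondrial amine oxidase, fell by 0.42 on the log2 scale.

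Of the 13 thioredoxin and peroxiredoxin genes 4 fell and 1 rose (38.5% called, beside 20.8% of all genes). Txn2 and Txnrd2, the mitochondrial thioredoxin and its reductase, fell by 0.47 and 0.34, and Prdx5 and Prdx6 fell by 0.36 and 0.30. Txnip, a thioredoxin-binding protein that responds to glucose, stood at 219, 120 and 154 CPM in WT sham and at 342, 380 and 325 CPM in WT IR. Its groups did not overlap (1.09 ± 0.19, adjusted p = 0.00733).

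In the other lists 2 of 6 heme and iron genes rose, the ferritin light chain Ftl1 (0.86 ± 0.16, adjusted p = 0.00941) and the biliverdin reductase Blvra (0.43). Those 2 of 6 are 33.3%, beside 20.8% of all genes called. Of 16 tested glutathione genes 2 rose, the endoplasmic reticulum peroxidases Gpx7 (0.77) and Gpx8 (0.58), and none of the glutathione synthesis genes did. That is 12.5%, below the share of all genes. G6pdx, the entry enzyme of the pentose phosphate pathway, rose by 0.89 ± 0.16 (adjusted p = 0.00796) and Selenop, the plasma carrier of selenium, by 0.76 ± 0.13 (adjusted p = 0.00734), while Me1, malic enzyme, fell by 0.30. Mtf1, the metal sensor that drives the metallothioneins, stood at 12, 10.6 and 11 CPM in WT sham and at 8.81, 7.99 and 7.53 CPM in WT IR. All WT IR libraries were lower (−0.46 ± 0.10, adjusted p = 0.0134). Keap1, the inhibitor of NRF2, fell by 0.35 and was the only one of 6 NRF2 control genes called (16.7%). Blvra, Keap1, Txnrd2, Prdx5, Prdx6 and Maob were named after their values were seen, the others as the 12 with the smallest p. The adjusted p of those 6 was 0.0310 to 0.0377, and that of Txn2, Gpx7, Gpx8 and Me1 was 0.0158 to 0.0202. With scaling to the cardiomyocyte markers, which moved the median of all genes to 0.30, Mtf1, Txn2 and Me1 lost their calls (−0.18, −0.19 and −0.01). Single genes were followed through the alternatives only if among those 12. Whether Keap1, Txnrd2, Prdx5, Prdx6 and Maob keep their calls under this scaling was therefore not examined.

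Among the 66 genes 4 rose and 1 fell in the second comparison in the libraries with the Zeb2 cTg IR label, which is 7.58% beside 3.64% of all genes, with a median log2 fold change of 0.14 beside 0.01. Nox4 fell here, from 6.46, 3.93 and 8.93 CPM in Zeb2 WT IR to 1.47, 1.53 and 1.40 CPM. The 3 libraries with the Zeb2 cTg IR label were nearly equal and all lower (−2.14 ± 0.29, adjusted p = 0.00827), and the call held in all 18 alternatives, as it did after IR in wild-type mice. Fibroblast marker sums were 1209, 874 and 1970 CPM in Zeb2 WT IR and 509 to 624 CPM in the other group. Their part in the Nox4 difference was not tested here either. Selenow, a small selenoprotein of muscle, stood at 13.4, 11.4 and 14.8 CPM and at 35.6, 21 and 35.5 CPM, and it was higher by 1.22 ± 0.21 (adjusted p = 0.0179). Msrb1, a selenium-dependent methionine sulfoxide reductase, was higher by 0.93 ± 0.19 (adjusted p = 0.0317), but stood at 0.62 after the GC correction (adjusted p = 0.0685). The glutathione S-transferase Gstm2 and the peroxiredoxin Prdx2, abundant in red blood cells, were higher by 0.63 ± 0.12 (adjusted p = 0.0239) and 0.60 ± 0.12 (adjusted p = 0.0320). No gene of metal handling, heme and iron or NRF2 control (5, 6 and 6 tested) was called in this table, beside 3.64% of all genes. Mtf1 stood at −0.02 (adjusted p = 0.947) and Keap1 at 0.31 (adjusted p = 0.392). Atox1, of metal handling, stood higher by 1.03 ± 0.24 without overlap but missed the threshold (adjusted p = 0.0519). Also without overlap, Mafg, of NRF2 control, stood at 0.59 (adjusted p = 0.0710) and Slc39a14, of metal handling, at −0.46 (adjusted p = 0.111). Without Zeb2 WT IR replicate 2 or 3 or Zeb2 cTg IR replicate 1 or 3 the call of Nox4 was the only one left, without Zeb2 WT IR replicate 1 Selenow was left too, and without Zeb2 cTg IR replicate 2 there were 21. Gstm2 and Prdx2 also lost their calls with scaling to the cardiomyocyte markers (adjusted p = 0.0517 and 0.0662).

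**Figure D5:**
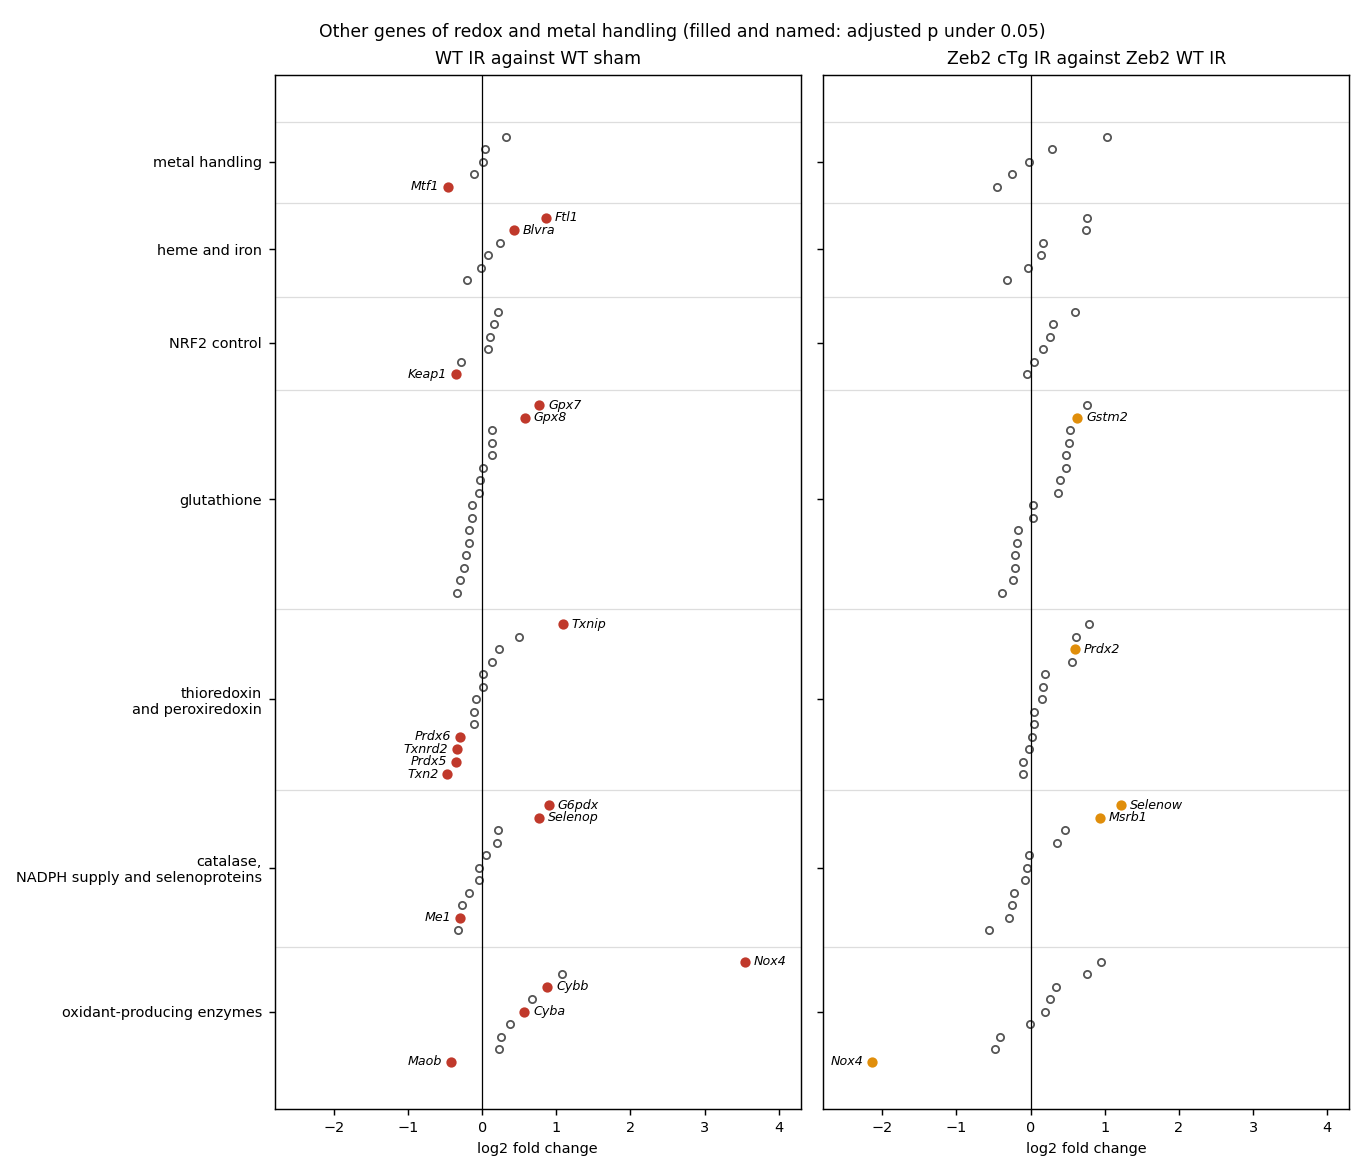
Log2 fold change of the 66 tested genes of redox and metal handling outside the members, by list, in WT IR against WT sham and in Zeb2 cTg IR against Zeb2 WT IR. Filled and named points passed an adjusted p under 0.05, 18 genes on one side and 5 on the other, and Nox4 stood at 3.54 and −2.14.

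The genes most like the members were sought over all 12 libraries, with each table centred on its own mean, among 11996 other genes. As a description, Mt2 ran most like Ephx1, an epoxide hydrolase (Pearson r = 0.962), Nppa, the atrial natriuretic peptide gene (0.954), and Cttn (0.954). Hmox1 ran most like Acly (0.961), Smarcd2 (0.913) and the complement gene C1qb (0.912), and Gpx3 most like C1qb (0.976), Tmem176b (0.966) and Tgfbr2 (0.964). Sod2 ran most like Mrps35 (0.970), Tarsl2 (0.966) and Immt (0.965), of which Mrps35 and Immt code for mitochondrial proteins. Among the members themselves Gpx3 and Sod2 ran most opposite (−0.977), and Sod3 and Gpx1 most alike (0.957). These values share libraries and the group differences above.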

How the data were processed

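RNA from 12 mouse hearts, 3 per group, was sequenced as strand-specific single-end reads. The submitters' processing notes name STAR 2.4.2a and HTSeq 0.6.1 with mm10, and the study counted reads over GENCODE M4. The authors deposited 2 tables of raw counts per Ensembl gene, 1 for WT sham and WT IR and 1 for both Zeb2 groups. The library kit is given as a total RNA kit in the methods and as an mRNA kit in the labels. Symbols and exons came from GENCODE M21 (GRCm38, the same build), and 36429 of 38293 IDs matched. All columns were mapped to samples, and no 2 libraries were copies.

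Each table was fitted separately with edgeR 4.0.16 in R 4.3.3 (quasi-likelihood test on group, TMM factors). Genes were filtered by filterByExpr with a minimum of 10 counts and a total of 15. P-values had Benjamini-Hochberg adjustment over all genes tested and a threshold of 0.05. A check on simulated counts, drawn independently for each gene, looked at the sign and mean size of added changes. It set no limit on false calls. Differences between the tables were not tested. CPM are counts per 1000000 counts of the library on the TMM scale; log2 CPM for likeness had a prior count of 2. The SE is the log2 fold change divided by the root of F. Named genes were all members, up to 12 called pathway genes with the smallest p per comparison, and the 3 genes most like Mt2, Hmox1, Sod2 and Gpx3. The members, lists, ratios and rules were chosen with earlier results of these data known. Alternatives used other scalings, filters, GC correction, a replicate block, DESeq2 1.42.0, limma-voom 3.58.1, all libraries in 1 fit, other thresholds and each library left out. The labels give no litter or batch, so p-values measure the spread between these mice.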

Additional observations from a re-analysis of the deposited data

How the results depend on the processing

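For WT IR against WT sham the main fit called 2859 genes, 5 members and 18 pathway genes, and for Zeb2 cTg IR against Zeb2 WT IR 474, 3 and 5. Leaving out 1 library gave 421 to 4980 genes, 0 to 7 members and 3 to 33 pathway genes in the first comparison, lowest without WT sham replicate 2 and highest without WT IR replicate 1, and 98 to 2419, 0 to 5 and 1 to 21 in the second, with 98 genes without Zeb2 WT IR replicate 3 and 2419 without Zeb2 cTg IR replicate 2. All 12 libraries in 1 fit called 1424 genes and 8 pathway genes in the first comparison and 1932 and 18 in the second. At a threshold of 0.01 the counts were 699 genes, 1 member and 5 pathway genes, and 62, 0 and 1. In the second comparison a threshold of 0.1 gave 1317 genes and 11 pathway genes, no filter 1553 genes, 5 members and 14 pathway genes, DESeq2 1096 and 12, GC correction 826 and 9, and scaling to the cardiomyocyte markers 3 pathway genes. The split of higher and lower calls was 1519 and 1340 in the first comparison, and it was 2918 and 219 with scaling to the cardiomyocyte markers, 1186 and 1597 with GC correction and 950 and 474 with all libraries in 1 fit. In the second it was 278 and 196, and 157 and 430 with the cardiomyocyte scaling. The causes were not tested.

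Signs turned as follows. With the cardiomyocyte scaling Mt1 stood at 0.20 after IR and Prdx1 at −0.0033 in the second comparison. With GC correction Prdx1 stood at −0.10 after IR, and in the second comparison Sod2 at 0.10, Gpx3 at −0.013 and Zeb2 at 0.15. With 1 library left out Mt1 ranged from −0.17 to 0.00079 after IR, and in the second comparison Hmox1 ranged from −0.12 to 0.42 and Zeb2 from −0.13 to 0.019.

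Deviations of same-numbered libraries correlated at −0.034 to 0.012 in the first table and at 0.134, 0.260 and −0.042 in the second. Not every pair passed 0.1, so the numbers were not taken as pairs. A replicate block called 1813 genes, 5 members and 17 pathway genes in the second comparison, adding Sod3 and Gpx1 (adjusted p = 0.0186 and 0.0131), and added Nqo1 (adjusted p = 0.0309) in the first. With block and GC correction these 3 additions were lost (adjusted p = 0.0668, 0.239 and 0.0945), Prdx1 stood at −0.10 after IR, and in the second comparison Sod2 at 0.10, Gpx3 at −0.022, Zeb2 at 0.15 and Mt2 at 0.71 (adjusted p = 0.0514). With 3 libraries per group and 24 to 158 counts for Mt2 and 33 to 143 for Hmox1, small differences in these genes could not be resolved.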
